A study of Sus scrofa with 23 samples.

Results

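The genes described here are enzymes that break down or build amino acids in the kidney. The list held 46 gene symbols in 9 groups, for arginine and creatine, proline and hydroxyproline, glycine and serine, tyrosine, branched-chain amino acids, lysine, tryptophan, sulfur amino acids, and D-amino acids and sarcosine. A member was kept where its symbol was in the table that pairs transcripts with genes, which left 44 of 46 members out of 26687 genes. PRODH and PIPOX were not among those symbols. RNA of the kidney cortex was sequenced from 23 newborn pigs. By label, 11 were homozygous for loss of CFTR (CFTR-/-, called CF here), 6 were heterozygous (CFTR+/-, HET) and the remaining 6 were wild-type (WT). The litters came from heterozygous parents, and CFTR encodes an epithelial chloride and bicarbonate channel. The WT and HET libraries together formed the non-CF group of 12. Each library came from 1 pig and 1 piece of whole cortex, held between 32901281 and 52952273 estimated counts, and carried no label for sex or litter.

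The proximal tubule takes up filtered amino acids and is the main site of their metabolism in the cortex. It makes arginine from citrulline, makes the creatine precursor guanidinoacetate, oxidises D-amino acids and proline, and exchanges glycine with serine. Breakdown of branched-chain amino acids, lysine, tryptophan and tyrosine passes through mitochondrial and cytosolic enzyme chains that are also found in liver. The comparison of genotypes asks whether RNA of these enzymes differs with CFTR genotype in newborn kidney, before postnatal disease develops.

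CFTR RNA went against the genotype labels. It was higher in the libraries labelled CF than in those labelled WT by a log2 ratio of 3.14 (SE 0.188; edgeR, adjusted p = 1.23e-10). The libraries labelled HET were also above WT, by a log2 ratio of 2.47 (SE 0.194; edgeR, adjusted p = 5.07e-08), so the pooled non-CF group joins low and high CFTR levels. Groups are therefore called by the labels of their libraries. The libraries were also divided by pig number, since earlier results of these data had separated them that way. No value for that separation is given here. Set 1 held pigs 1 to 6 and 12 to 18 (13 libraries), and set 2 held pigs 7 to 11 and 19 to 23 (10 libraries). Each genotype label occurred in both sets, and the labels name no batch. By label, set 1 held 4 WT, 3 HET and 6 CF libraries, and set 2 held 2 WT, 3 HET and 5 CF libraries. Values against WT in set 2 alone therefore rest on 2 WT pigs, and the mix of WT and HET in non-CF differs between the sets. Of the 14 proximal tubule markers, 0 were at 0 in the cortex libraries, and their summed level was between 2148 and 3898 in TPM, a level scaled for transcript length and library size.

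The 44 members spanned a wide range of levels in this cortex. ASS1, which joins citrulline with aspartate on the way to arginine, was the most abundant, with a median of 570.1 TPM over the 23 libraries (lowest 351, highest 911). GATM, which makes guanidinoacetate for creatine, had a median of 296 TPM (131 to 454). DAO, the peroxisomal D-amino acid oxidase, had 130.0 TPM (65.4 to 216). FAH, the last enzyme of tyrosine breakdown, had 66.6 TPM (38.9 to 99.6), and DLD, the shared dehydrogenase subunit of the glycine cleavage system and of 2-oxoacid complexes, had 63.4 TPM (41.5 to 84.1). ASS1 exceeded GATM, GATM exceeded DAO and DAO exceeded FAH in 23 of 23 libraries. FAH and DLD did not keep an order, since FAH was the higher in 14 of 23 libraries.

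At the other end, HPD, the dioxygenase that makes homogentisate from 4-hydroxyphenylpyruvate, had a median of 0.516 TPM (0.0798 to 1.33) and between 3 and 84 counts. DDO, the oxidase of D-aspartate, had 1.96 TPM (0.852 to 4.06), and GLDC, the decarboxylase of the glycine cleavage system, had 2.55 TPM (1.79 to 4.38). CDO1, cysteine dioxygenase, had 3.06 TPM (1.93 to 11.3), and CBS, cystathionine beta-synthase, had 3.10 TPM (2.14 to 5.38). The order of the last pair was not fixed, since CBS was above CDO1 in 10 of 23 libraries. Altogether 36 members had a median of 10 TPM or more, 5 were under 5 TPM, and all 44 passed the filter on low counts. The filter therefore removed no member.

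**Figure D1:**
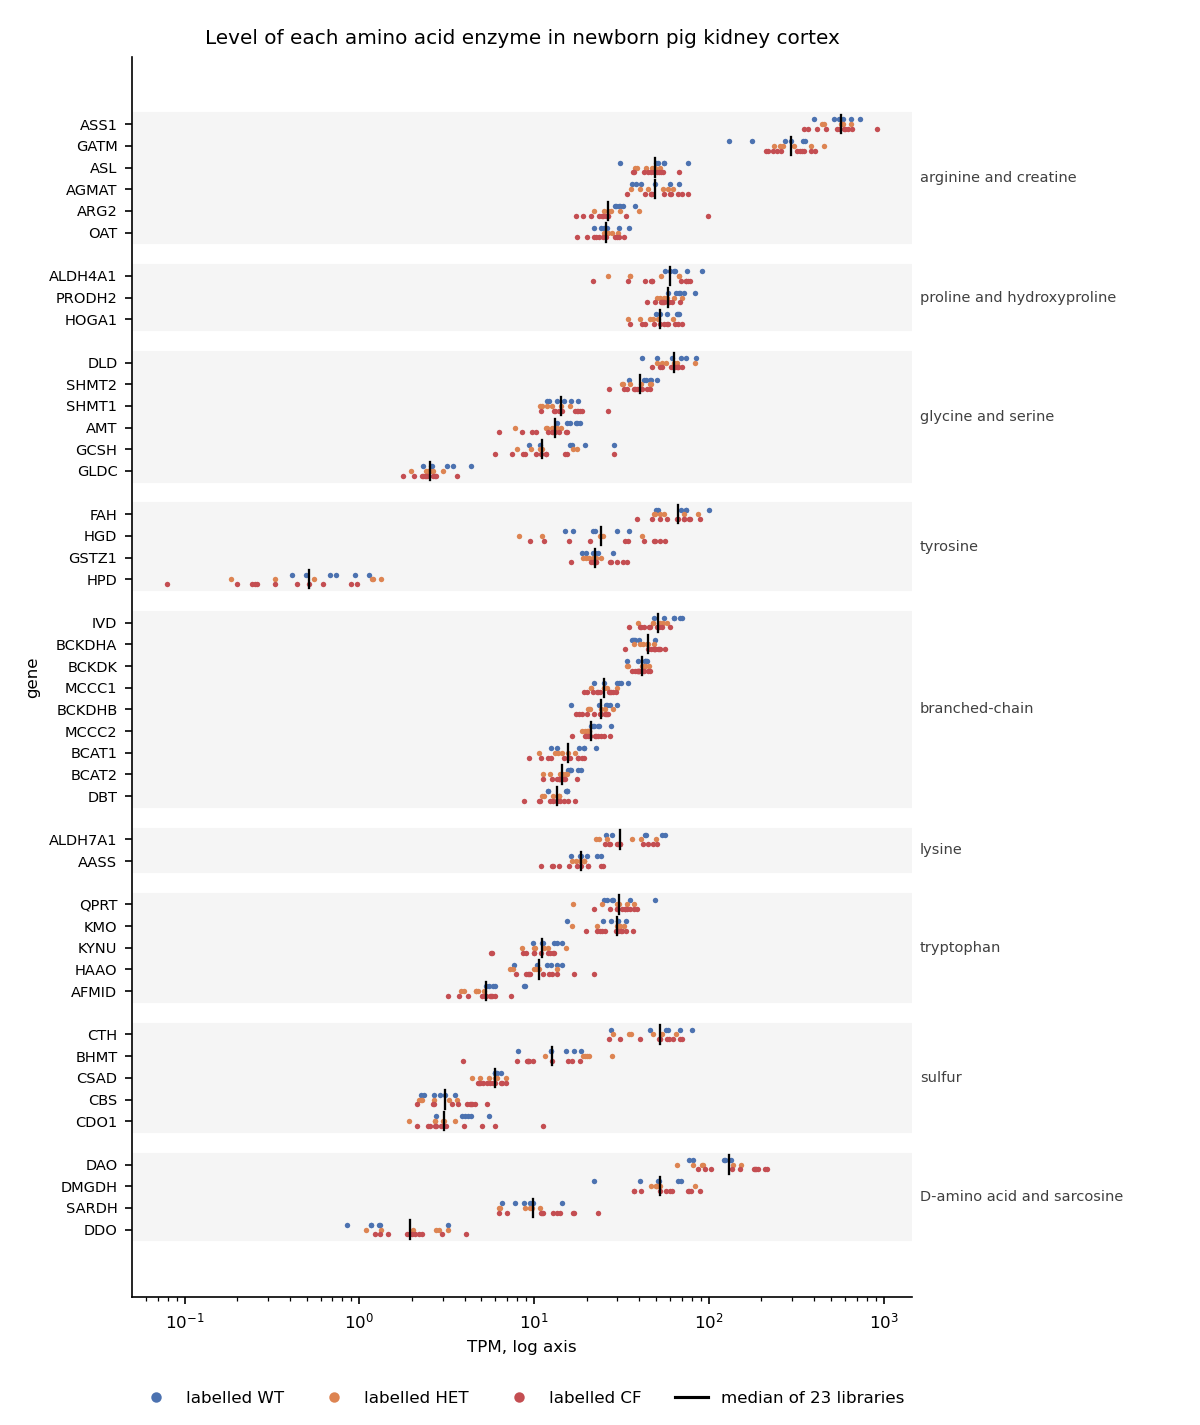
Level of each of the 44 enzymes in each of 23 libraries, in TPM on a log axis, grouped by pathway and coloured by genotype label, with a black line at the median of 23 libraries. ASS1 and GATM sit at the top with medians of 570.1 and 296 TPM, and HPD sits lowest with 0.516 TPM.

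Within a pathway, levels could differ by more than a factor of 10. In tyrosine breakdown, HPD (0.516 TPM) stood far under its successors HGD, homogentisate dioxygenase (24.04 TPM), GSTZ1, maleylacetoacetate isomerase (22.4 TPM), and FAH (66.6 TPM), and HGD exceeded HPD in 23 of 23 libraries. In the glycine cleavage system, the subunits GLDC (2.55 TPM), GCSH (11.08 TPM), AMT (13.1 TPM) and DLD (63.4 TPM) were also unequal. The branched-chain group was more even, from 13.5 TPM for DBT, the E2 subunit of the branched-chain dehydrogenase, to 51.2 TPM for IVD, isovaleryl-CoA dehydrogenase.

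The spread between libraries differed by member too. The biological coefficient of variation, edgeR's estimate of the relative spread between libraries of 1 group, was under 0.2 for 21 members and 0.3 or more for 7. It was smallest for DBT (0.106), MCCC2 (0.108) and PRODH2 (0.111), and largest for HPD (0.566), HGD (0.475) and DDO (0.381). Single libraries held many of the extremes. On CPM, counts scaled to library size and used for 1 gene between libraries, CF pig 9 was the highest library for 10 members and WT pig 23 for 6. WT pig 12 and CF pig 6 were each the lowest for 7, and HET pig 13 was above the median for only 5 of the 44 members. WT pig 12 also had the lowest summed level of the proximal tubule markers, at 2148 TPM.

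Promoters are shown for DAO, CBS and BHMT, the members with the smallest p whose main transcript starts at the annotated gene end. Each run gives the 250 bases before the start in Sscrofa11.1, read on the gene's strand, with capitals for matches to CCAAT or TATAAA on either strand. The DAO window is chr14:41950629-41950878 on the minus strand, that of CBS chr13:206231364-206231613 on the minus strand, and that of BHMT chr2:87910843-87911092 on the plus strand.
DAO: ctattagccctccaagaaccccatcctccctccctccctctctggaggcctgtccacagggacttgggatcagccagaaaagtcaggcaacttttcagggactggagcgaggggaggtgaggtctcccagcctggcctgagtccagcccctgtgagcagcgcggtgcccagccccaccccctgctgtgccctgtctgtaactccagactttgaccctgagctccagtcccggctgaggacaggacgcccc
CBS: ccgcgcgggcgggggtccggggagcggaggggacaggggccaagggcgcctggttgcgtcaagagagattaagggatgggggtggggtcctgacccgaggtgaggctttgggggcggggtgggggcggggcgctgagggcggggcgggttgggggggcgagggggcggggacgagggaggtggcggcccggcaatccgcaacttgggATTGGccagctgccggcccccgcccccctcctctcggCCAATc
BHMT: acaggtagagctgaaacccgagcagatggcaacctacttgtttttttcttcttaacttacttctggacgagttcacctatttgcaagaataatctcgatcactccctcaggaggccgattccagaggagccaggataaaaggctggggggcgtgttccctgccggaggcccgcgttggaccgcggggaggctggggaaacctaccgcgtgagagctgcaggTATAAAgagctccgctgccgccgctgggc
The CBS window held CCAAT letters at positions 43 to 39 and 6 to 2 before the start, on opposite strands. BHMT held TATAAA at positions 29 to 24 before the start, and DAO held no match. Over windows of the same length, CCAAT on either strand was in 22 of 44 members (50.0%) and in 31.3% of 18870 genes, and TATAAA in 2 of 44 members (4.55%) and in 8.93% of genes. Other motifs searched on both strands were GTTAAT, a half-site of HNF1 (2 of 44 members, 5.35% of genes), CAAAGTCC, a core of HNF4 sites (0 of 44, 0.980% of genes), and TGATGNAAT, a C/EBP-ATF element (0 of 44, 0.456% of genes). A match describes letters in this window and was not tested as a site.

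The first comparison set 11 libraries labelled CF against 12 non-CF libraries. In edgeR (quasi-likelihood test, with p adjusted by Benjamini-Hochberg over 20921 genes), 0 of 44 members had an adjusted p under 0.05, where 0.349% of all genes tested did (73 genes, 51 higher and 22 lower, or 48 higher and 53 lower with upper-quartile normalization). DESeq2 called 4 members (482 of 25476 genes), limma-voom 0 (46 of 20921 genes) and a Mann-Whitney U test 0 (29 of 20921 genes). At an unadjusted p under 0.05 there were 11 of 44 members, beside 13.7% of all genes. Of these, 7 were higher in the libraries labelled CF (7.35% of all genes) and 4 were lower (6.36% of all genes). The median log2 ratio over the members was 0.02, and over all genes tested it was -0.00052. By size without sign, the medians were 0.098 for the members and 0.095 for all genes. The 95% interval lay within 1 log2 unit of 0 for 41 of 44 members, HPD, HGD and BHMT being the others, and within 0.5 for 32. In 0 of 44 members did the groups separate without overlap, as 0.00478% of all genes did. In bulk cortex, fewer cells of a type and less RNA per cell cannot be told apart.

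**Figure D2:**
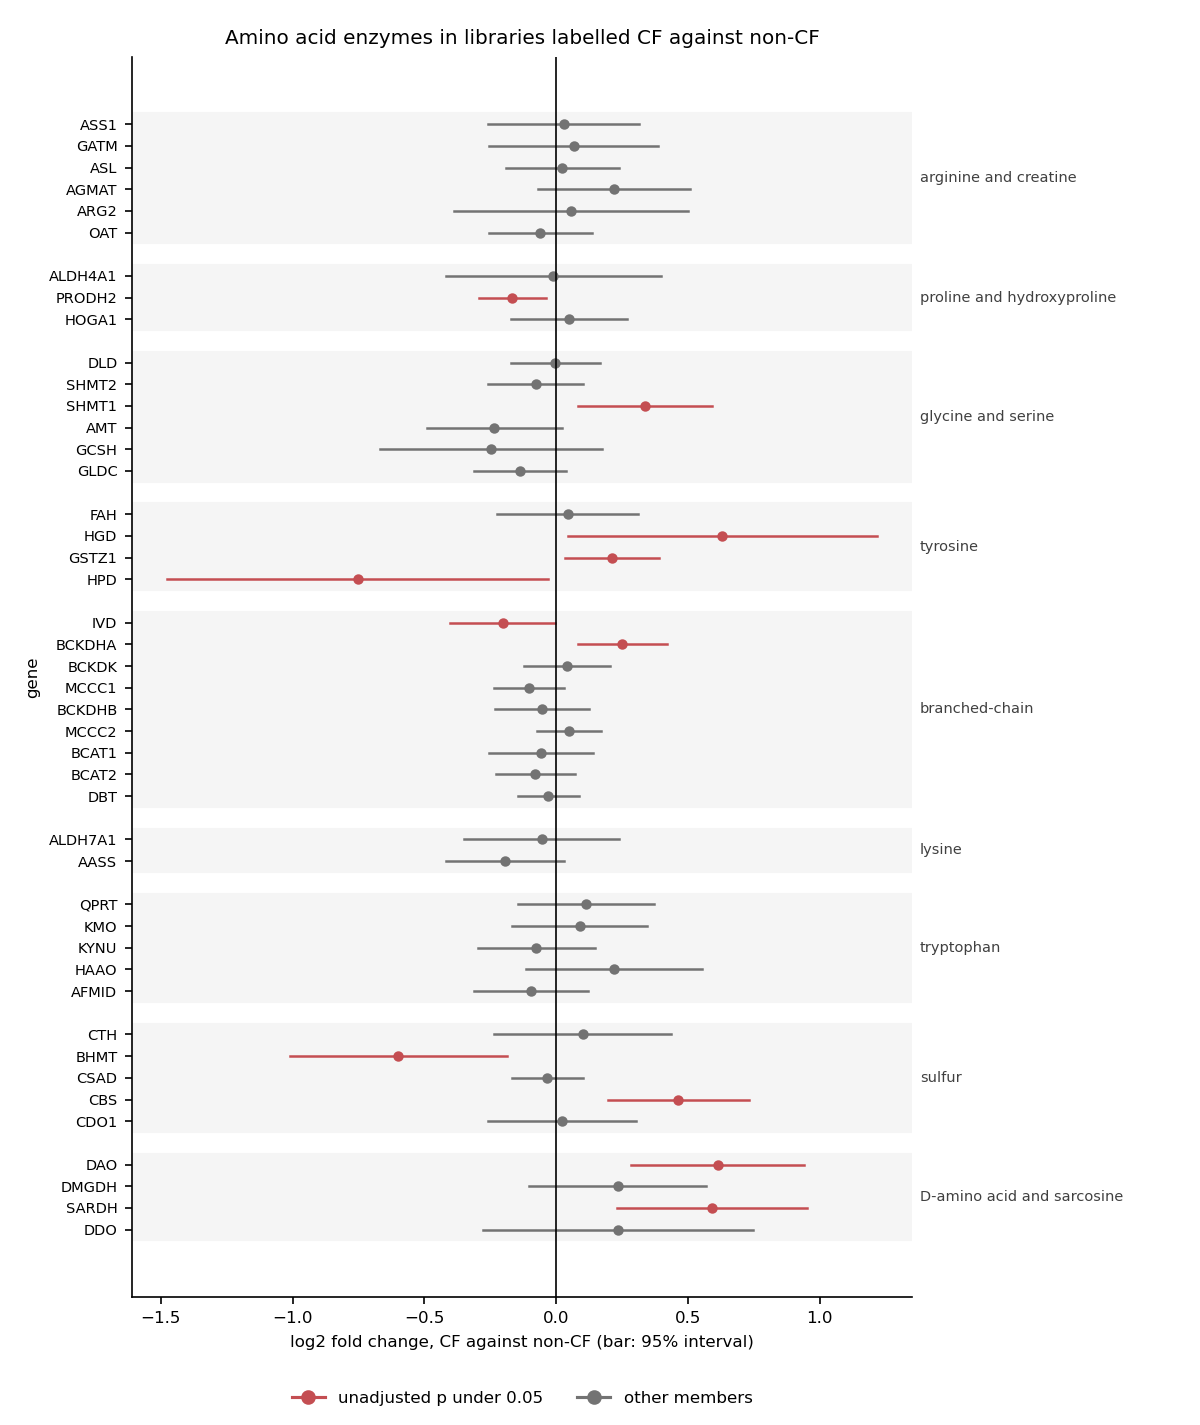
Log2 fold change of each of the 44 enzymes in libraries labelled CF against non-CF, by pathway, with bars for the 95% interval. Red marks the 11 members with an unadjusted p under 0.05, from DAO at 0.61 and HGD at 0.63 to BHMT at -0.60 and HPD at -0.75, and 0 of 44 passed the adjusted threshold.

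Enzymes of D-amino acids and sarcosine lay higher in the libraries labelled CF than in non-CF in 4 of 4 members found, as did 10411 of all 20921 genes. DAO, which turns D-amino acids into their keto acids, had the smallest p of all members. In CPM it was 199 at the lowest, 315 at the median and 419.8 at the highest in non-CF, and 282, 463 and 709.8 in CF. Of 11 CF libraries 6 lay above every non-CF library, the others overlapped them, and 4 of 12 non-CF libraries lay under every CF library. The log2 ratio was 0.61 (SE 0.160, 95% interval 0.28 to 0.94, unadjusted p = 0.000745, edgeR adjusted p = 0.0755). Leaving out 1 library at a time, it ranged from 0.54 to 0.67. The edgeR adjusted p came under 0.05 without CF pig 3 (0.0495) or without CF pig 4 (0.0397), reached 0.146 with other libraries left out, was 0.0490 with the pig number set as a term and was 0.433 with the HET libraries alone as control.

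SARDH, sarcosine dehydrogenase, which turns sarcosine into glycine in mitochondria, had 19.9, 31.1 and 48.5 CPM (lowest, median, highest) in non-CF and 20.6, 46.0 and 74.9 CPM in CF. The groups overlapped from 20.6 to 48.5 CPM, a range that holds the CF median, and 5 of 11 CF libraries lay above every non-CF library. Its log2 ratio was 0.59 (SE 0.175, 95% interval 0.23 to 0.95, edgeR adjusted p = 0.111). DMGDH, dimethylglycine dehydrogenase, which makes sarcosine, had a log2 ratio of 0.23 (SE 0.163, edgeR adjusted p = 0.572). For DDO it was 0.23 (SE 0.249, edgeR adjusted p = 0.745). Both intervals covered 0, and single libraries carried part of both values. Without CF pig 1 the log2 ratio of DDO was 0.04, without HET pig 21 it was 0.36, and without CF pig 9 that of DMGDH was 0.13. DDO did not keep its direction, being at 0.46 in set 1 alone, at -0.06 in set 2 alone and at -0.09 for CF against HET.

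Sulfur amino acid enzymes held members on either side of 0. CBS, which condenses homocysteine with serine, had 4.70, 5.93 and 9.03 CPM in non-CF and 5.25, 9.14 and 11.3 CPM in CF (lowest, median, highest). Of 11 CF libraries 6 lay above every non-CF library, and 9 were above the non-CF median. As a log2 ratio this was 0.46 (SE 0.130, 95% interval 0.20 to 0.73, unadjusted p = 0.00150, edgeR adjusted p = 0.0945). Without HET pig 15 the edgeR adjusted p of CBS was 0.0469, and without CF pig 4 it was 0.0442, while it reached 0.166 with other libraries left out.

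BHMT, which remethylates homocysteine with betaine, went the other way. It had 17.8, 34.9 and 64.2 CPM in non-CF and 10.4, 20.97 and 43.4 CPM in CF, with 10 of 11 CF libraries under the non-CF median but only 1 under every non-CF library. On a log2 scale the ratio was -0.60 (SE 0.2005, 95% interval -1.01 to -0.19, edgeR adjusted p = 0.159). The estimated counts of BHMT summed to a whole number in only 1 of 23 libraries, so some of its reads were split with other genes, and its values are uncertain to that degree. BHMT2, its neighbour in the family and not a member, had 185 TPM at the median and a log2 ratio of 0.23 (SE 0.182, edgeR adjusted p = 0.644).

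The other sulfur enzymes lay near 0. CTH, which cleaves cystathionine to cysteine, had a log2 ratio of 0.10 (SE 0.164), CSAD, a decarboxylase on the way to taurine, -0.03 (SE 0.065), and CDO1 0.02 (SE 0.136). CDO1 was moved most by 1 library. CF pig 1 had 17.03 CPM, where the others lay between 6.49 and 11.8, and without it the log2 ratio was -0.13. Its value turned below 0 when any of 7 libraries was left out. The same pig held the lowest BHMT (10.4 CPM) and the highest HGD (102.9 CPM).

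Of 4 tyrosine enzymes, 3 had an unadjusted p under 0.05, as 13.7% of all genes did, in unlike directions, and 0 passed the adjusted threshold. HPD had 0.234, 0.851 and 1.81 CPM in non-CF and 0.0776, 0.467 and 1.32 CPM in CF, which overlapped over most of their range. Its log2 ratio was -0.75 (SE 0.351, 95% interval -1.47 to -0.03, edgeR adjusted p = 0.342). In the lowest library, CF pig 6, HPD rested on 3 counts, where counting error is large. HGD, the next enzyme, had 12.9, 37.0 and 57.8 CPM in non-CF and 14.8, 46.3 and 102.9 CPM in CF, a log2 ratio of 0.63 (SE 0.284, 95% interval 0.05 to 1.22, edgeR adjusted p = 0.319), or 0.49 without CF pig 1. Of 11 CF libraries 5 lay above every non-CF library. GSTZ1 had 30.2, 36.2 and 41.96 CPM in non-CF and 32.3, 39.3 and 56.4 CPM in CF, a log2 ratio of 0.21 (SE 0.087, edgeR adjusted p = 0.263). FAH, at the end of the chain, had a log2 ratio of 0.04 (SE 0.130, 95% interval -0.22 to 0.31).

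In the glycine and serine group, SHMT1, the cytosolic serine hydroxymethyltransferase, stood apart from the others. It had 29.1, 36.6 and 40.7 CPM in non-CF and 25.5, 40.8 and 78.8 CPM in CF. Of 11 CF libraries 6 lay above every non-CF library, and 1 lay under all of them. The log2 ratio was 0.34 (SE 0.123, 95% interval 0.08 to 0.59, edgeR adjusted p = 0.208), or 0.22 without CF pig 9. The mitochondrial SHMT2 had a log2 ratio of -0.08 (SE 0.088). The cleavage subunits AMT (-0.23, SE 0.124), GCSH (-0.25, SE 0.204), GLDC (-0.14, SE 0.085) and DLD (-0.0042, SE 0.082) had intervals that covered 0. GCSH had whole sums in only 12 of 23 libraries, so part of its reads were shared with other genes.

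For the branched-chain enzymes, all 9 intervals lay within 0.5 log2 units of 0. BCKDHA, the E1 alpha subunit of the branched-chain dehydrogenase, had 48.0, 59.0 and 77.2 CPM in non-CF and 53.2, 69.1 and 83.3 CPM in CF. As a log2 ratio this was 0.25 (SE 0.082, 95% interval 0.08 to 0.42, edgeR adjusted p = 0.150), with 10 of 11 CF libraries above the non-CF median. Its partner BCKDHB had a log2 ratio of -0.05 (SE 0.087), DBT -0.03 (SE 0.057) and BCKDK, the kinase that switches the complex off, 0.04 (SE 0.079). IVD, the next step for leucine, had 43.95, 59.4 and 72.1 CPM in non-CF and 38.6, 52.7 and 70.2 CPM in CF, a log2 ratio of -0.20 (SE 0.096, edgeR adjusted p = 0.350). The transaminases BCAT1 (-0.06, SE 0.096) and BCAT2 (-0.08, SE 0.073) and the methylcrotonyl-CoA carboxylase subunits MCCC1 (-0.10, SE 0.064) and MCCC2 (0.05, SE 0.059) lay close to 0 on the log2 scale.

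In arginine and creatine metabolism, 0 of 6 members had an unadjusted p under 0.05. ASS1 had 555, 788 and 945 CPM in non-CF and 448, 716 and 1449 CPM in CF, a log2 ratio of 0.03 (SE 0.139, 95% interval -0.26 to 0.31). GATM had a log2 ratio of 0.07 (SE 0.156), ASL, which splits argininosuccinate into arginine, 0.02 (SE 0.105), OAT, which makes glutamate semialdehyde from ornithine, -0.06 (SE 0.095), and AGMAT, annotated as agmatinase, 0.22 (SE 0.140). ARG2, the mitochondrial arginase, turned on 1 library. CF pig 5 had 121 CPM, and the other 22 libraries lay between 23.9 and 50.0 CPM. On a log2 scale the ratio was 0.06 (SE 0.215) over all libraries and -0.31 without CF pig 5 (unadjusted p = 0.00164, edgeR adjusted p = 0.121). DESeq2, which by default replaces outlying counts in groups of this size, gave -0.30 with an adjusted p of 0.0467.

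For proline and hydroxyproline, PRODH2, a hydroxyproline dehydrogenase, had 145, 173 and 198 CPM in non-CF and 133, 147 and 179 CPM in CF. Of 11 CF libraries 10 were under the non-CF median and 4 under every non-CF library. The log2 ratio was -0.17 (SE 0.062, 95% interval -0.29 to -0.04, edgeR adjusted p = 0.210). ALDH4A1, which oxidises glutamate semialdehyde, had a log2 ratio of -0.01 (SE 0.198), and HOGA1, the last enzyme of hydroxyproline breakdown, 0.05 (SE 0.107). The lysine enzymes AASS (-0.19, SE 0.109) and ALDH7A1 (-0.06, SE 0.143) and the tryptophan enzymes of the kynurenine pathway also had intervals that covered 0. Among the latter, the log2 ratio was 0.22 for HAAO (SE 0.162), 0.11 for QPRT (SE 0.125), 0.09 for KMO (SE 0.124), -0.08 for KYNU (SE 0.108) and -0.10 for AFMID (SE 0.105). The value of HAAO rested much on CF pig 2 (34.4 CPM), and without it the log2 ratio was 0.08. Leaving out 1 library also moved AGMAT to 0.14 (CF pig 9), QPRT to 0.06 (HET pig 13) or 0.18 (WT pig 23), CTH to 0.03 (CF pig 7) or 0.17 (WT pig 23), GLDC to -0.09 (WT pig 18), GCSH to -0.42 (CF pig 11) or -0.14 (WT pig 23), and AFMID to -0.04 (WT pig 16). In all, 30 of the 44 members moved by over 1.5 times when 1 library was left out, and of the 11 with an unadjusted p under 0.05 this held for 1, SHMT1. A log2 ratio near 0 passes this mark with a small move, and the 11 were picked by p in the same libraries. These counts therefore do not compare the stability of the 11 with that of the others.

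**Figure D3:**
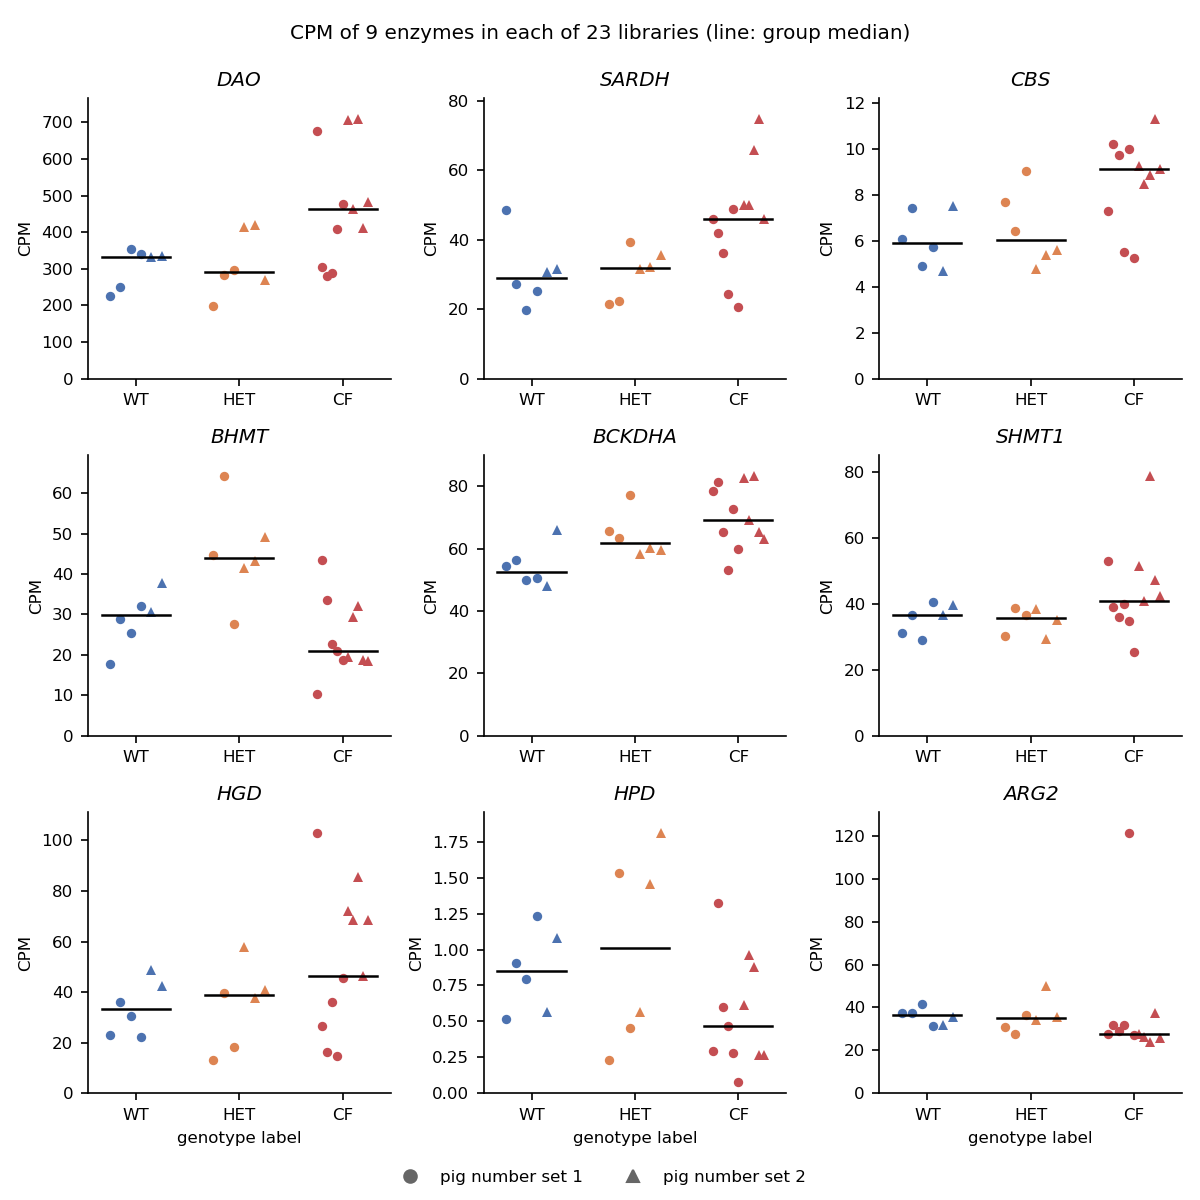
CPM of 9 enzymes in each of 23 libraries by genotype label, with circles for pig number set 1, triangles for set 2 and a line at each group median. The median of DAO was 315 CPM in the 12 non-CF libraries and 463 CPM in the 11 CF libraries, BHMT was lowest in CF pig 1 at 10.4 CPM, and ARG2 shows CF pig 5 alone at 121 CPM.

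The pairwise comparisons put the 3 genotype labels in 1 fit. CF against WT gave 0 of 44 members with an edgeR adjusted p under 0.05 (0.349% of all genes), and 10 of 44 at an unadjusted p under 0.05 (14.1% of all genes). Of these, 5 were higher in CF (7.63% of all genes) and 5 were lower (6.51% of all genes). DESeq2 called 3 members here (580 of 25458 genes) and limma-voom 0 (66 of 20921 genes). BCKDHA had the smallest p. It had 48.0, 52.5 and 66.0 CPM in WT and 53.2, 69.1 and 83.3 CPM in CF, and 6 of 11 CF libraries lay above every WT library. As a log2 ratio this was 0.38 (SE 0.094, 95% interval 0.18 to 0.57, edgeR adjusted p = 0.0664). The edgeR adjusted p of BCKDHA was 0.0377 without WT pig 23 and 0.0280 without CF pig 4, and reached 0.147 with other libraries left out. CBS followed with a log2 ratio of 0.51 (SE 0.164, edgeR adjusted p = 0.138) and DAO with 0.63 (SE 0.203, edgeR adjusted p = 0.140). In both genes 8 of 11 CF libraries lay above every WT library. Over all genes the calls were 32 higher and 41 lower, or 36 and 103 with upper-quartile normalization. In 0 of 44 members did CF and WT separate without overlap, as 0.229% of all genes did.

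HET against WT gave 0 of 44 members by the edgeR adjusted p (0.00478% of all genes), 4 at an unadjusted p under 0.05 (7.99% of all genes), 0 by DESeq2 (29 of 25458 genes) and 0 by limma-voom (1 of 20921 genes). The 4 were 3 higher in HET (4.12% of all genes) and 1 lower (3.88% of all genes). AFMID, the arylformamidase of tryptophan breakdown, had the smallest p. It had 13.1, 14.9 and 19.7 CPM in WT and 10.5, 12.7 and 14.04 CPM in HET, with 3 of 6 HET libraries under every WT library and a log2 ratio of -0.36 (SE 0.129, edgeR adjusted p = 0.541). The log2 ratio of AFMID was -0.50 in pig number set 1 alone and -0.06 in set 2 alone (edgeR adjusted p = 0.956). BHMT had 17.8, 29.8 and 37.8 CPM in WT and 27.7, 43.9 and 64.2 CPM in HET, and 5 of 6 HET libraries lay above every WT library. Its log2 ratio was 0.65 (SE 0.249, 95% interval 0.13 to 1.16, edgeR adjusted p = 0.563), and 0.80 in set 1 alone and 0.39 in set 2 alone. Of 4 hepatocyte markers tested, 3 had an unadjusted p under 0.05 in the same comparison, with log2 ratios of 3.74 for ALB, 2.93 for FGB and -0.42 for APOA1. ALB was at 2.83 TPM in HET pig 14 and 3.81 TPM in HET pig 15, and at most 0.829 TPM in any other library. CPS1, which was not tested, was at 1.14 and 0.806 TPM in these pigs and at most 0.125 TPM in any other library. FGB was at 25.7 to 65.6 TPM in HET pigs 19 to 21. With HET pigs 14 and 15 both left out, a choice made after seeing the data, BHMT was at 0.63 in log2 (unadjusted p = 0.0243 in edgeR). In that fit ALB was at 0.53 (unadjusted p = 0.440), FGB at 3.37 (0.0295), APOA1 at -0.55 (0.0254) and TTR at 0.21 (0.642). The others with an unadjusted p under 0.05 were BCKDHA (0.24, SE 0.106) and DDO (0.73, SE 0.323), both higher in HET. In sets 1 and 2 alone, BCKDHA was at 0.38 and 0.07 and DDO at 0.19 and 1.498. All values of set 2 here set 3 HET libraries against only 2 WT libraries. HET and WT did not separate without overlap in any of the 44 members, while 0.703% of all genes did.

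CF against HET gave 0 of 44 members by the edgeR adjusted p, 6 at an unadjusted p under 0.05 (9.89% of all genes), 1 by DESeq2 (57 of 25458 genes) and 0 by limma-voom (0 of 20921 genes). Of the 6, 4 were higher in CF (5.55% of all genes) and 2 were lower (4.34% of all genes). The share of all genes with an adjusted p under 0.05 was 0.0%. BHMT had the smallest p. Its 3 highest HET libraries lay above every CF library and 7 of 11 CF libraries lay under every HET library. On a log2 scale the ratio was -0.89 (SE 0.214, 95% interval -1.33 to -0.45, unadjusted p = 0.000340, edgeR adjusted p = 0.190). Against WT, the libraries labelled CF had a log2 ratio of -0.24 for this gene (SE 0.218, 95% interval -0.69 to 0.21), which was -0.14 without WT pig 23, -0.36 without CF pig 2, and -0.05 in set 1 and -0.52 in set 2 alone. In CF against HET, 2 of 4 hepatocyte markers had an unadjusted p under 0.05, ALB at a log2 ratio of -2.65 (edgeR adjusted p = 0.219) and APOA1 at 0.58. With HET pigs 14 and 15 both left out, BHMT was at -0.87, ALB at 0.56, APOA1 at 0.71 (unadjusted p = 0.00311 in edgeR), FGB at -0.66 (0.591) and TTR at -0.00094 (0.998). DAO had a log2 ratio of 0.59 (SE 0.202, edgeR adjusted p = 0.356) and SARDH of 0.59 (SE 0.222, edgeR adjusted p = 0.393). Groups without overlap were found for 0 of 44 members and 0.0765% of all genes. These 3 comparisons share libraries, so their values are not independent of each other.

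**Figure D4:**
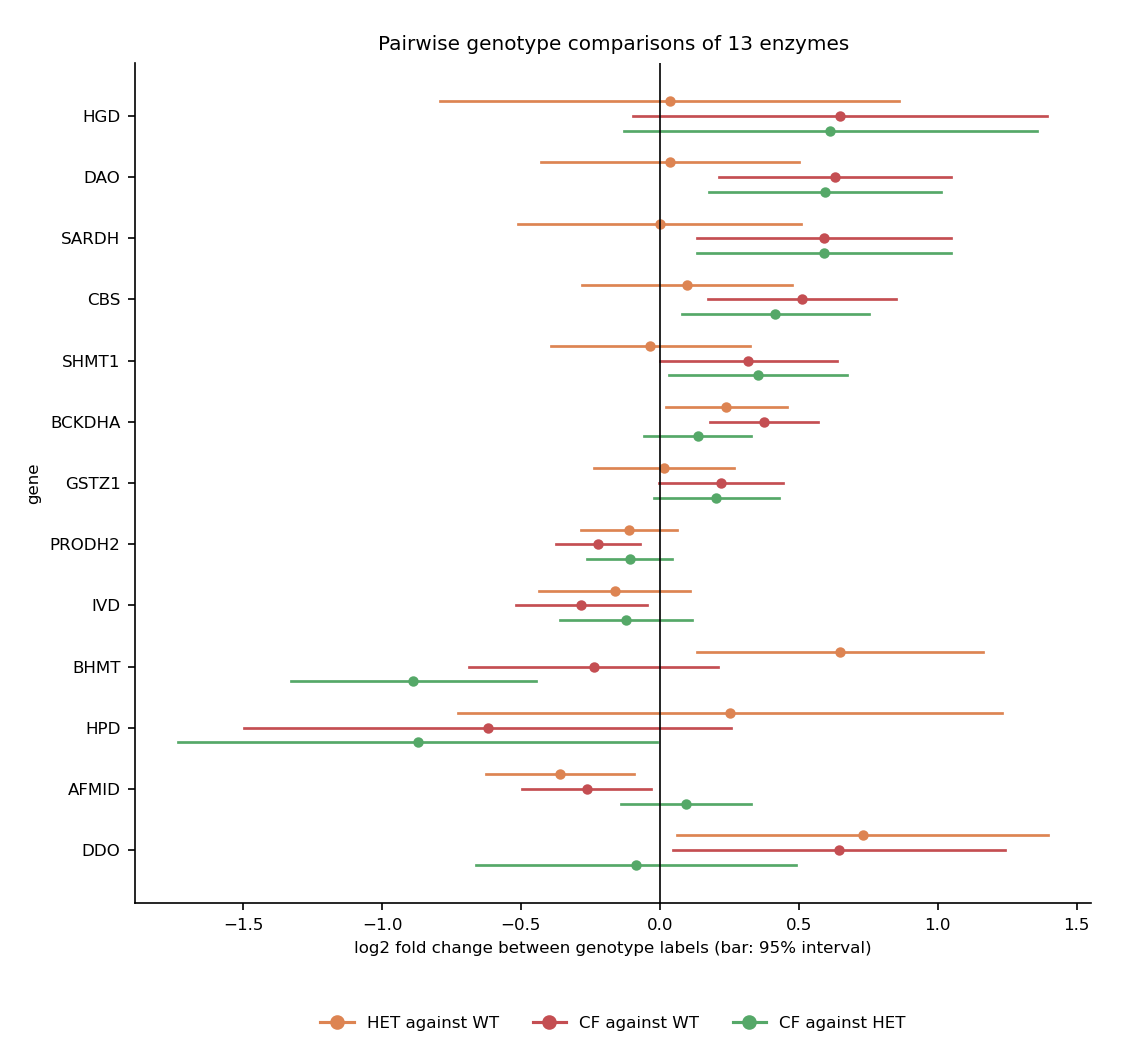
Log2 fold change between genotype labels for 13 enzymes, with bars for the 95% interval and a colour for each pair of labels. BHMT lies at 0.65 for HET against WT and at -0.89 for CF against HET, while DAO and SARDH lie near 0 for HET against WT and at 0.59 for CF against HET.

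Within the pig number sets, several members had a value further from 0 for CF against non-CF in set 2. With its sign kept, the value was higher in set 2 for 15 of 44 members and lower for 29, beside 10488 and 10433 of 20921 genes. The difference between the sets was tested next. SARDH had a log2 ratio of 0.32 in set 1 and 0.83 in set 2 (edgeR adjusted p = 0.741 and 0.00594). CBS had 0.25 in set 1 and 0.76 in set 2 (edgeR adjusted p = 0.739 and 0.0167). For BHMT it was -0.45 in set 1 and -0.77 in set 2 (edgeR adjusted p = 0.714 and 0.0341). SHMT1 had 0.13 and 0.55, and GSTZ1 0.09 and 0.34. DAO differed less, with 0.54 and 0.66 (edgeR adjusted p = 0.373 and 0.0646), and so did HGD, with 0.62 and 0.59. Set 1 alone gave 0 of 44 members at an adjusted p under 0.05, and 0 of 21038 genes (1958 at an unadjusted p under 0.05, 1 of them a member). Set 2 alone gave 3 members and 473 of 20882 genes (3635 at an unadjusted p under 0.05, 12 of them members), so the sets also differed in these counts over all genes.

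A test of the difference between the sets gave 0 of 44 members at an edgeR adjusted p under 0.05 (0.0191% of all genes). At an unadjusted p under 0.05 it gave 1 of 44 (10.1% of all genes; 4.49% with a larger and 5.65% with a smaller value in set 2), DLD, with a log2 ratio of 0.14 in set 1 and -0.17 in set 2. For SARDH the difference was 0.50 (SE 0.310, 95% interval -0.14 to 1.14), for CBS 0.50 (SE 0.252, 95% interval -0.01 to 1.02) and for DAO 0.10 (SE 0.290, 95% interval -0.50 to 0.70). None of these 3 intervals excluded 0. ARG2 was 0.38 in set 1, which holds CF pig 5, and -0.41 in set 2.

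**Figure D5:**
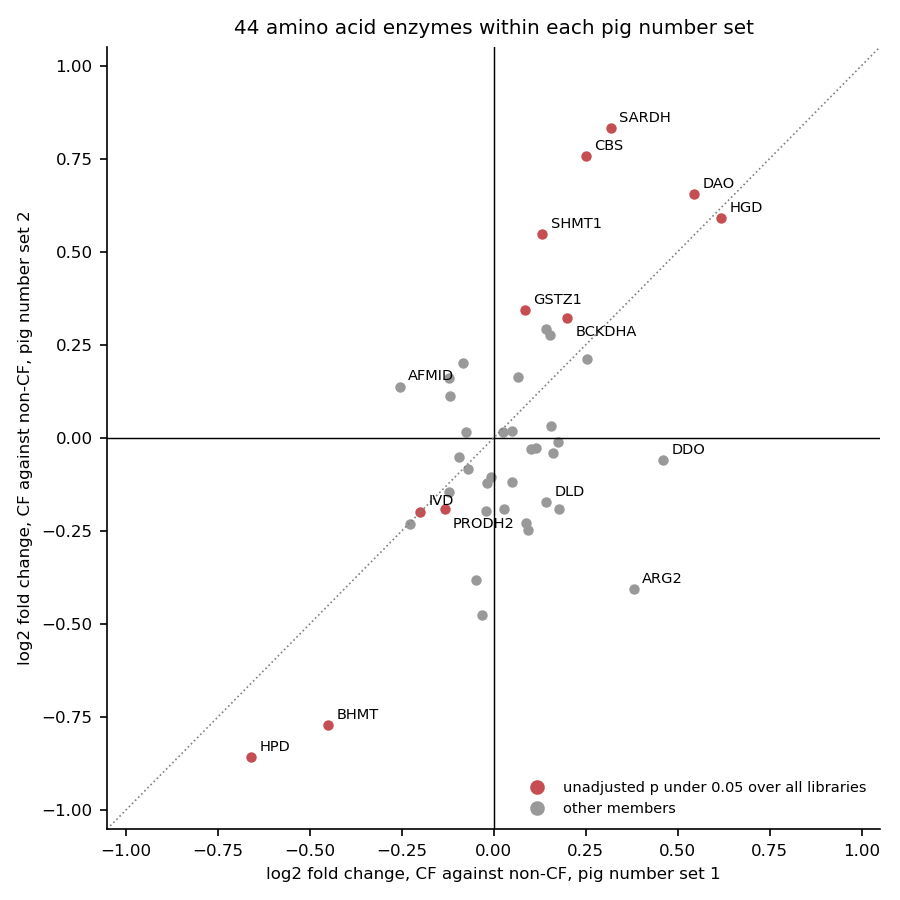
Log2 fold change of the 44 enzymes in CF against non-CF, in pig number set 1 on the horizontal axis and set 2 on the vertical axis, with a dotted line of equal values. SARDH (0.32 and 0.83) and CBS (0.25 and 0.76) lie above the line, and DAO (0.54 and 0.66) lies close to it.

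Values are also given for other enzymes of these pathways, 71 tested of 77 listed, without a test against the members. None had an edgeR adjusted p under 0.05 for CF against non-CF (0 of 71, with 11 at an unadjusted p under 0.05 beside 13.7% of all genes), and their median log2 ratio was -0.02. The smallest p was that of GAD1, which makes the transmitter GABA from glutamate and had a median of 0.133 TPM, with a log2 ratio of 1.17 (SE 0.359, edgeR adjusted p = 0.126). SQOR, which oxidises sulfide, had -0.25 (SE 0.090), HIBCH of valine breakdown -0.20 (SE 0.076), GCAT of threonine breakdown -0.26 (SE 0.106) and AHCY, which frees homocysteine, -0.23 (SE 0.094).

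No marker of a cortex cell type passed the edgeR adjusted threshold for CF against non-CF, and CALB1 had the smallest adjusted p of 0.0636. Of 14 proximal tubule markers, 10 had higher and 4 lower values in the libraries labelled CF, with a median log2 ratio of 0.12 and 3 at an unadjusted p under 0.05, which were CUBN (0.24), MIOX (0.63) and ANPEP (0.34). Their summed level was 2148, 2895 and 3884 TPM (lowest, median, highest) in non-CF and 2238, 3095 and 3898 TPM in CF. Of 8 loop of Henle or distal tubule markers, UMOD had a higher value, at 0.28. The other 7 had lower values, with CALB1 at -1.40, SLC12A3 at -0.64 and SLC12A1 at -0.28. The 8 markers summed to 576 to 1317 TPM in non-CF and 543 to 788 TPM in CF. Hepatocyte markers, of interest because HPD and BHMT are also liver enzymes, summed to 68.5 to 176 TPM in non-CF and 113 to 241 TPM in CF. In most libraries most of this sum was APOA1, as in WT pig 22 (172 of 176 TPM), so it mostly gives the level of that gene. APOA1, with a median of 109 TPM, had a log2 ratio of 0.35, FGB (2.68 TPM) of 0.60, TTR (1.90 TPM) of -0.13 and ALB (0.123 TPM) of -1.76, so the 2 with an unadjusted p under 0.05, APOA1 and ALB, had opposite signs. With HET pigs 14 and 15 both left out, ALB was at 0.85, APOA1 at 0.35, FGB at 0.46, TTR at 0.12, BHMT at -0.53 and HPD at -0.73. In CF pig 5, which had the highest sum, FGB was at 177.5 TPM and APOA1 at 60.1 TPM. At an unadjusted p under 0.05, beside 13.7% of all genes, there were 3 of 8 loop of Henle or distal tubule markers, all lower. The counts were 2 of 8 for collecting duct, 1 of 6 for podocyte, 0 of 6 for nephron progenitor and 1 of 5 for endothelial markers. They were 0 of 5 for stroma and muscle, 0 of 4 for leukocyte, 1 of 6 for erythroid and 2 of 4 for hepatocyte markers. The part of these marker values in those of DAO, SARDH, CBS, BHMT and HPD was not tested.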

How the data were processed

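Kidney cortex RNA was depleted of ribosomal RNA, made into stranded total RNA libraries and sequenced on a NovaSeq. The authors pseudoaligned reads with kallisto to transcripts of Sscrofa11.1 (the strand setting is not given in the sources used here). They deposited an estimated count per transcript, without normalization, and a TPM value, which is the estimate divided by effective length and scaled to a constant sum. Here, estimated counts were summed per symbol and rounded, and TPM values were summed per symbol. In 26 of 44 members the sums were whole within 0.01 in all 23 libraries. The other 18 shared reads with other genes.

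edgeR 4.0.16 (R 4.3.3) with TMM, filterByExpr, the quasi-likelihood test and Benjamini-Hochberg adjustment over 20921 genes compared CF with non-CF, since the study's methods compare these. A fit with 3 genotypes gave the pairwise contrasts, and an interaction term tested the CF difference between pig number sets. CPM used the TMM-adjusted totals of the genes kept, and log2 CPM used a prior count of 2. Alternatives were DESeq2 1.42.0, limma-voom (limma 3.58.1), 2 other normalizations, 2 other filters (none, or 10 counts in 6 libraries), length-scaled TPM, the pig number set or the Y-linked EIF1AY as a term, each set alone, WT or HET alone as control, a Mann-Whitney U test (the study's test), each library left out and, added after seeing the data, HET 14 and HET 15 both left out. The edgeR, DESeq2, limma-voom and Mann-Whitney fits were tested on simulated data, and the other steps were not. Promoters were read with pysam 0.24.0, and tables and figures were made in Python 3.11.15 with pandas 2.3.3, numpy 2.4.6, scipy 1.17.1 and matplotlib 3.10.9.

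The members, the lists of other enzymes and markers, and the pig number sets were chosen with earlier results of these data known. Every member is named. Described in full are the 10 with the smallest p for CF against non-CF, the 3 with the smallest p in each pairwise contrast, the 5 highest and 5 lowest by TPM, members called in any comparison or alternative, and members that an extreme library decides, which were chosen after their values were seen. The labels give no cultures, litters or batches. The p-values set a difference against the spread between pigs and treat each pig as independent, so shared litters were not accounted for. No pair of libraries held identical values. By library totals before the filter and TMM, a count of 3 corresponds to between 0.0567 and 0.0912 CPM, which covers counting error only. Raw reads were not analysed here.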

Additional observations from a re-analysis of the deposited data

Results flagged for a closer look

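In groups of 6 libraries, the gap between the highest or lowest library and its nearest neighbour was set against the whole range of log2 CPM, for 44 members in the labels WT and HET. Of 88 such groups, 5 had a ratio above the critical value of 0.625. Chance gives about 1 in 20, or 4.4 of 88, so the number as a whole is close to that share. HET pig 13 was low for AMT, with 16.2 CPM where the other HET libraries held 24.8 to 30.1 (ratio 0.688), and for BCAT1, with 88.6 CPM beside 116 to 130.2 (ratio 0.704). WT pig 12 was low for BCKDHB, with 21.6 CPM beside 31.5 to 37.3 (ratio 0.69). HET pig 19 was high for DMGDH, with 311 CPM beside 194 to 230.1 (ratio 0.642), and WT pig 23 was high for QPRT, with 59.1 CPM beside 32.3 to 39.6 (ratio 0.664). The group of 11 CF libraries was not examined in this way, so CF pig 5 for ARG2 and CF pig 1 for CDO1 do not appear here.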

How the results depend on the processing

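Over 38 alternatives for CF against non-CF and 35 for each pairwise contrast, of which leaving out both HET 14 and HET 15 was added after seeing the data, the 11 members with an unadjusted p under 0.05 kept their direction, as did BCKDHA, CBS and DAO for CF against WT, BHMT, AFMID and BCKDHA for HET against WT, and BHMT, DAO and SARDH for CF against HET. The count of members with an adjusted p under 0.05 was 0 in each main comparison. For CF against non-CF it was 4 with DESeq2 (ARG2, CBS, DAO and SARDH), 1 with the pig number set as a term (DAO) and 3 in set 2 alone (BHMT, CBS and SARDH), and it ranged from 0 to 2 with each library left out. Over all genes the calls moved too, from 73 to 482, 148 and 473 under the first 3 of these, and between 17 (without HET 21) and 203 (without CF 4, the fit with 2 members called) with each library left out. For CF against WT it was 3 with DESeq2 (BCKDHA, CBS and DAO, with 580 genes in all beside 73) and ranged from 0 to 1 with each library left out, with 20 (without WT 12) to 203 (without CF 4) genes in all. For CF against HET it was 1 with DESeq2 (BHMT, with 57 genes in all beside 0) and 3 in set 2 alone (BHMT, CBS and SARDH, with 535 genes in all), and 0 with each library left out, as was HET against WT. The cause of these moves was not tested. Fits of 1 set alone use fewer libraries, and set 2 holds only 2 labelled WT.

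ARG2 turned its direction. Its log2 fold change for CF against non-CF of 0.06 became -0.30 with DESeq2, -0.12 with limma-voom, -0.41 in set 2 alone, -0.36 in the Mann-Whitney comparison and -0.31 without CF pig 5, and from 0.03 to 0.11 without any other library. The count at an unadjusted p under 0.05 for CF against non-CF was 11 members (13.7% of all genes). It was 1 in set 1 alone (9.31%), 12 in set 2 alone (17.4%), 5 against HET alone (9.52%) and 8 to 13 with each library left out (11.7% to 15.1%). For CF against WT it was 10 (14.1%), 3 in set 1 alone (13.4%) and 11 in set 2 alone (12.1%). With each library left out it was between 7 (without WT 17, 12.3%) and 15 (without CF 5, 13.3%). For HET against WT it was 4 (7.99%), 6 in set 1 alone (9.0%) and 3 in set 2 alone (7.88%). With each library left out it was between 2 (without HET 13, 6.81%, or WT 17, 6.69%) and 5 (6.04% to 9.37% over these fits). For CF against HET it was 6 (9.89%), 14 in set 2 alone (17.4%), 3 in set 1 alone (5.19%), and between 4 (without CF 1, 11.9%, or HET 20, 7.3%) and 7 with each library left out (6.24% to 12.3%). Leaving out 1 library moved the log2 fold change by over 1.5 times in 28, 35 and 33 of 44 members in these 3 comparisons, and of their 10, 4 and 6 members with an unadjusted p under 0.05 in 1 (GLDC), 0 and 0. Values near 0 pass this mark with a small move, and members with a small p were picked from the same libraries. These counts therefore do not compare stability. With the HET libraries alone as control, BCKDHA was at 0.13, IVD at -0.12 and PRODH2 at -0.11, and with the WT libraries alone BHMT was at -0.24. Normalization moved the median of all genes by at most 0.028 on the log2 scale. No paired analysis was possible because each pig number occurs once, under 1 genotype, and the labels tie no pigs to a litter. Depth limits HPD most, with 3 to 84 counts.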
